A study of Mus musculus with 8 samples.

Results

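The cortex of mice that had a stroke and restraint stress was compared with the cortex of mice that had restraint stress alone, on Day 21, by RNA-seq. PTS stands for photothrombotic stroke, in which the dye Rose Bengal was injected and cold light shone through the exposed skull over the right hemisphere, so that vessels in the lit cortex clotted. RS stands for restraint stress, a daily session in a ventilated tube for 21 days. In the study's visual stimulation protocols restraint began days after the stroke, so the course may have been incomplete on Day 21. The PTS + RS group (2 libraries) and the RS group (2 libraries) are 4 of the 8 libraries of the study, and all come from male C57BL/6 mice. The study's methods give an age of around 3 months for behavioural testing and none for the day of tissue collection. Both groups carried the restraint stress and differ by the stroke, so the comparison holds no unstressed and no sham-lit cortex. The study describes the tissue as damaged cortex. How the cortex of RS mice was placed relative to an infarct they did not have is not given in the sources used here. Nor do the sources say whether a library holds 1 mouse or a pool, so p-values measure only the spread between these libraries, which may be partly technical. Every gene with 10 or more counts in 2 of the 4 libraries was included, which left 17717 of the 54532 genes in the table.

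In the weeks after a cortical infarct the dead tissue is being cleared. Microglia, the resident phagocytes of the brain, and macrophages from the blood and the borders of the brain take up myelin and cell debris, digest them in lysosomes and must store or export the cholesterol this frees. Astrocytes around the lesion turn reactive and wall it off with dense processes rich in intermediate filaments. Neurons that survive near the lesion can lose synaptic input, and the genes they switch on within minutes of firing, the immediate early genes, are a common readout of that activity.

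Each library held between 15902013 and 18171227 gene counts. The mitochondrially encoded share was 4.42% and 4.55% in the PTS + RS libraries and 4.11% and 3.68% in the RS libraries. Log CPM (counts per 1000000, scaled by TMM) correlated at 0.9822 between the PTS + RS libraries and at 0.99 between the RS libraries. The chi-square per gene, which is about 1 for sampling noise alone, was 14.86 between the PTS + RS libraries and 4.851 between the RS libraries. Markers of choroid plexus, the secretory tissue of the ventricles and no part of the cortex, stood apart. Their summed level over 14 genes was 2612 CPM in PTS + RS replicate 1, 228.9 in PTS + RS replicate 2, 2870 in RS replicate 1 and 5764 in RS replicate 2. No member of that list passed the test. All 14 nonetheless had a log2 fold change, PTS + RS over RS, under 0. The groups did not overlap in any of the 14, against 24.5% of all genes on the low side. Without the minimum of 10 counts all 14 passed on the low side, in a fit where 716 genes did, against 103 with the minimum. The list's median log2 fold change of -1.85 became -0.97 when PTS + RS replicate 2 was left out and -5.06 when PTS + RS replicate 1 was. Summed markers of meningeal fibroblasts ranged from 92.01 to 196.7 CPM, those of ependymal cilia from 58.08 to 74.34 CPM and those of striatal neurons from 454.1 to 547.6 CPM. The 12 neuron markers summed to 7518 and 8237 CPM in the PTS + RS libraries and to 8506 and 8337 CPM in the RS libraries.

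**Figure D1:**
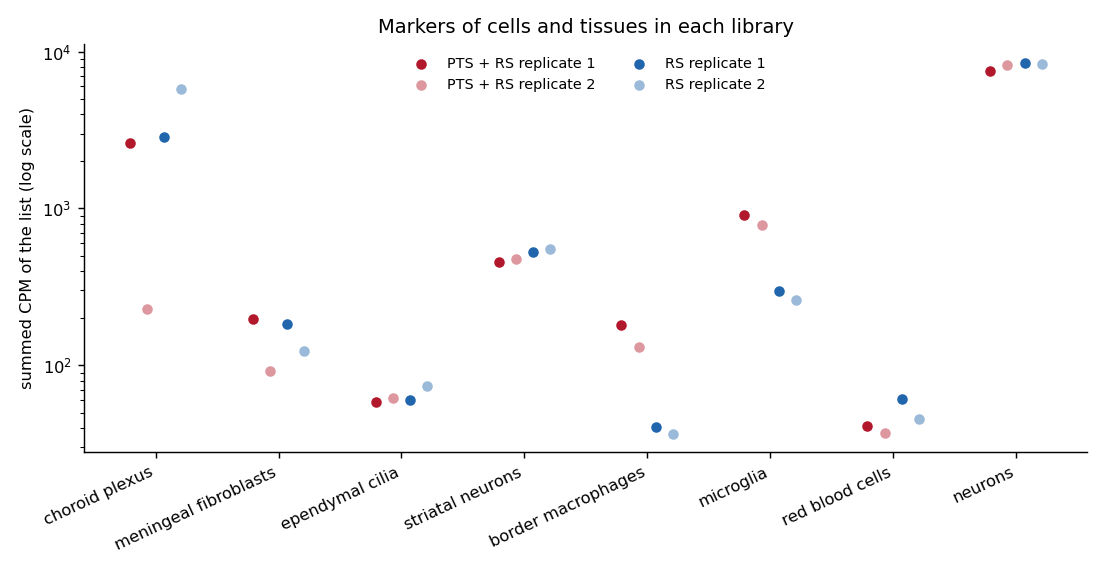
Summed CPM of 8 marker lists (log axis) in each of the 4 libraries. Choroid plexus markers ranged from 228.9 to 5764 CPM with the lowest value in PTS + RS replicate 2, whereas the microglia and border macrophage sums of both PTS + RS libraries lay above those of both RS libraries.

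More genes rose than fell in the PTS + RS group, and the rises were larger. By edgeR's quasi-likelihood test at an adjusted p under 0.05 (Benjamini-Hochberg over all tested genes), 519 genes (2.93%) rose and 103 genes (0.581%) fell in the PTS + RS group, 622 genes (3.51%) in all. "Rose" and "fell" mean past this test throughout. The median log2 fold change, PTS + RS over RS, was 1.579 among genes that rose and -0.616 among genes that fell, against -0.002 over all tested genes. At a change of 2-fold or more, 371 genes (2.09%) rose and 16 (0.0903%) fell. Libraries of the 2 groups did not overlap in 4535 genes (25.6%) on the high side and 4341 (24.5%) on the low side, so separation alone says little with 2 libraries a side. At an unadjusted p under 0.05, 1816 genes (10.3%) were higher and 1336 (7.54%) were lower. Protein-coding genes made up 500 of the 519 rises and 93 of the 103 falls.

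How many genes passed depended on which libraries entered. Leaving out RS replicate 1 gave 216 rises and 15 falls, and leaving out RS replicate 2 gave 239 rises and 13 falls. Leaving out a PTS + RS library narrowed the excess of rises over falls, to 1101 against 846 for replicate 1 and to 1578 against 1465 for replicate 2. All 622 genes kept their direction in each of these fits. They were chosen by the test on these same libraries, which made a kept direction likely, so it is no independent check.

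**Figure D2:**
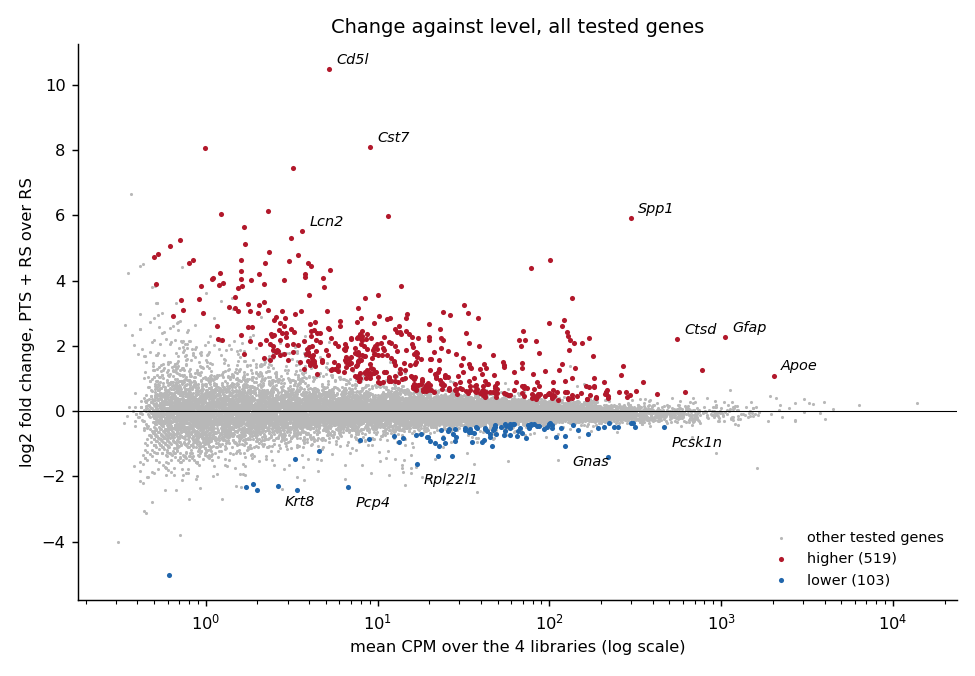
Log2 fold change, PTS + RS over RS, against mean CPM over the 4 libraries (log axis) for 17717 tested genes, with the 519 genes that rose in red and the 103 that fell in blue. Rises reach far above falls in size, from low genes such as Cd5l to abundant genes such as Spp1, Gfap and Apoe, while most falls are small and sit at middle levels.

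The largest rises were genes that hardly gave a count in the RS cortex. Cst7 encodes cystatin F, an inhibitor of lysosomal cysteine proteases, and had 322 and 290 counts in the PTS + RS libraries against 0 and 2 in the RS libraries. It was therefore at least 102-fold higher, taking 3 counts per library as the floor. Cd5l, a scavenger receptor family protein secreted by macrophages, had 182 and 173 counts against 0 and 0, at least 59.1-fold higher. At the same floor Lcn2 (lipocalin 2, an iron-carrier binding protein) was at least 40-fold higher, the elastase Mmp12 at least 36.1-fold, the DNA sensor Ifi204 at least 34.4-fold, the chemokine Ccl3 at least 25.9-fold, the mucin-like Glycam1 at least 18.5-fold and Hcar2, a receptor for hydroxybutyrate and niacin, at least 13.6-fold. The predicted gene Gm5431 was at least 18.6-fold higher. Genes were named here only where the groups did not overlap.

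Spp1 joined high level to large change. This gene (ENSMUSG00000029304, GRCm38 chromosome 5 from 104435118 to 104441050) encodes osteopontin, a secreted phosphoprotein of the matrix and of activated phagocytes. It was at 661 and 517 CPM in the PTS + RS libraries and at 14 and 5.36 CPM in the RS libraries. The groups were far apart, although the RS libraries differed from each other more than the PTS + RS libraries did on a log scale. The fold change was 60.0, a log2 fold change of 5.91 (SE 0.366, adjusted p = 0.00057, edgeR). Other genes of this profile, named after their values were seen, were Lyz2 (lysozyme), at 239 and 151 CPM against 10.2 and 5.36, and Gpnmb, a glycoprotein of phagocytes with loaded lysosomes, at 183 and 116 CPM against 7.12 and 7.19. Clec7a, the beta-glucan receptor dectin-1, was at 28.1 and 17.2 CPM against 0.166 and 0.568.

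**Figure D3:**
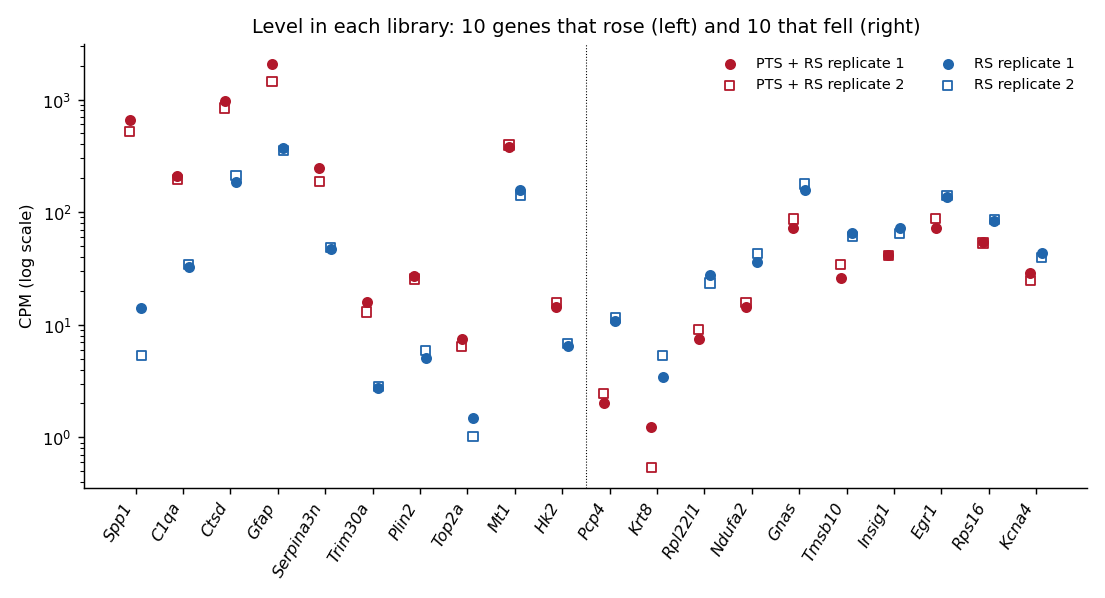
CPM (log axis) in each library for 10 genes that rose (left of the dotted line) and 10 that fell (right). Filled symbols are replicate 1 and open symbols replicate 2, red is PTS + RS and blue is RS. The widest gap is that of Spp1 (661 and 517 against 14 and 5.36 CPM), and on the right Pcp4 shows a wide one (2.04 and 2.45 against 10.9 and 11.5 CPM).

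Lysosomal genes rose as a broad block. Of 30 listed hydrolases, membrane proteins and proton pump subunits, 20 rose and 0 fell, or 66.7% against 2.93% of all genes, with a median log2 fold change of 0.81 against -0.002 over all genes. The proteases led. Ctsd, the aspartic protease cathepsin D, was at 974 and 839 CPM in the PTS + RS libraries and at 185 and 210 CPM in the RS libraries, 4.59-fold higher (log2 2.20, SE 0.116, adjusted p = 0.00037, edgeR). Ctsz (116 and 104 against 26.5 and 28.8 CPM) and Ctss (235 and 189 against 43.0 and 36.2 CPM) had the same adjusted p. All 3 were several times higher in both PTS + RS libraries, with no overlap.

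Within the lysosome the rise was not uniform. Grn, the lysosomal and secreted progranulin (log2 2.23), Gusb (1.63), Ctsl (1.26), Lgmn (1.32) and Hexa (1.13) rose by more than 2-fold, whereas Lamp1 (0.63), the main structural membrane protein, Tpp1 (0.57) and Asah1 (0.52) rose by less. The widely expressed proton pump subunit Atp6v1a was at 543 and 551 against 648 and 615 CPM, a log2 difference of -0.21 that did not pass (SE 0.085, adjusted p = 0.26, edgeR). The pump subunit Atp6v0d2, known from osteoclasts and macrophages, had 40 and 27 counts against 0 and 0 and was at least 11.1-fold higher. Fewer members of the list passed without RS replicate 1, and its median ranged from 0.63 to 0.97 with any library left out. Beside these genes, all 11 homeostatic microglia markers rose (100% against 2.93% of all genes, median 1.31), their sum going from 297.6 and 261.2 CPM in the RS libraries to 912.4 and 780.1 CPM. Tmem119, which marks microglia and not blood-derived macrophages, was at 31.9 and 34.8 against 15.1 and 16.9 CPM (log2 1.06, adjusted p = 0.005, edgeR). In bulk tissue, more cells of a type and more RNA per cell cannot be told apart, here and in every group below.

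Complement genes had the largest median of the lists, 2.30 on the log2 scale. Complement is a cascade of secreted proteins that tags debris and synapses for uptake, and it begins with C1q, made in the brain mainly by microglia. Of 15 tested members 9 rose (60% against 2.93% of all genes), all by 2-fold or more, and 0 fell. C1qb, a chain of C1q, was at 221 and 202 CPM in the PTS + RS libraries and at 32.3 and 29.3 CPM in the RS libraries, 6.88-fold higher (log2 2.78, SE 0.093, adjusted p = 7.9e-05, edgeR). C1qa (log2 2.61, SE 0.084) and C1qc (log2 2.69, SE 0.097) had the same adjusted p, the smallest of the named genes. Downstream, C4b was at 251 and 176 against 41.9 and 44.7 CPM and C3, the central component, at 21.6 and 15.8 against 1.43 and 1.77 CPM. Receptors rose as well: C3ar1 by 3.85, C5ar1 by 2.84, and the integrin chains of the complement receptors, Itgam by 2.13 and Itgax by 4.44, all on the log2 scale. C2, which cleaves C3 together with C4b, was at 1.40 and 1.14 against 1.43 and 1.33 CPM and did not pass (log2 -0.12, adjusted p = 0.91, edgeR). The median stayed between 2.11 and 2.54 with any library left out.

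Interferon-stimulated genes stood higher without exception. These genes, many of them antiviral, are switched on by type I interferon. All 27 members had a log2 fold change above 0, from 0.57 for Stat2 to 4.01 for Mx1, with a median of 1.82. The libraries of the groups did not overlap in any of the 27, against 25.6% of all genes on the high side. The test passed 17 of them (63% against 2.93% of all genes). Trim30a, a restriction factor of the tripartite motif family, was at 15.9 and 13 CPM in the PTS + RS libraries and at 2.76 and 2.84 CPM in the RS libraries, 5.16-fold higher (log2 2.37, SE 0.199, adjusted p = 0.0015, edgeR). Lgals3bp was at 135 and 83.8 against 19.9 and 28.1 CPM (adjusted p = 0.005), and Ifi27l2a at 5.02 and 5.68 against 1.16 and 0.694 CPM (adjusted p = 0.0089). Irf7, the factor that amplifies the response, was at 17.2 and 9.63 against 2.54 and 2.97 CPM. PTS + RS replicate 1 was the higher library in most of these genes, and the list median was 2.17 in it and 1.28 in replicate 2. The number of calls was less stable than the median: 6 members passed with limma-voom and 22 with DESeq2, and fewer passed with either RS library left out. The median stayed between 1.29 and 2.20.

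Promoters of these genes were searched for the interferon-stimulated response element, whose core is GAAANNGAAA, on both strands of the RefSeq window from 250 bases before to 50 bases after the start (GRCm38.p6). Of the 27 members 20 had an entry, and 14 of these (70%) held the core, against 1079 of 27025 genes in the table (3.99%). Of the 13 members with an entry that rose, 10 held it. The stretches below, 5′ to 3′ on the gene's strand, are shown because these 4 genes rose and lie among those with the smallest p whose match falls before the deposited gene. Capitals mark the core in either orientation, and overlapping matches run together. They lie at chr7:104465194-104465269 (minus strand, Trim30a), chr5:120907526-120907585 (minus strand, Oas1a), chr19:34607729-34607818 (plus strand, Ifit3b) and chr19:34583333-34583422 (plus strand, Ifit3).
Trim30a: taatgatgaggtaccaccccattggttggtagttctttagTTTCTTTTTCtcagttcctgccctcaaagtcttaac
Oas1a: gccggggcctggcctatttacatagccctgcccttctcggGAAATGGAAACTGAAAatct
Ifit3b: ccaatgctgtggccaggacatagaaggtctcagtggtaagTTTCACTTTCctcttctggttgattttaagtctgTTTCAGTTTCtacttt
Ifit3: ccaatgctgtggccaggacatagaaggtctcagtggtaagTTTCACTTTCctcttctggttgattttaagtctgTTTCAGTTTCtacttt

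In Trim30a the core begins 36 bases before the start and reads in the opposite orientation. In Oas1a a pair of overlapping cores begins 20 bases before it. Ifit3 and Ifit3b, which lie on the same chromosome, carry the same 90 bases with a pair of cores. Oas1a, which makes the second messenger that activates the antiviral nuclease RNase L, was at 5.37 and 3.95 CPM in the PTS + RS libraries and at 0.441 and 1.01 CPM in the RS libraries (log2 2.70, SE 0.42, adjusted p = 0.019, edgeR). Ifit3 was at 32.5 and 13.3 against 4.14 and 4.73 CPM, and Ifit3b at 12.1 and 6.16 against 2.26 and 2.02 CPM. Since Ifit3 and Ifit3b are close copies, reads may be split between them and their separate values are uncertain. Both stood higher in both PTS + RS libraries, with the larger value in replicate 1. A match of letters is a description and does not show that a factor bound there. In the lysosomal list, the CLEAR core TCACGTGA was found in 4 of the 21 members with an entry (19%). That compares with 1.12% of the table and 1.95% of the genes tested here. Of the 14 members with an entry that rose, 2 held it (14.3%). Of the 4 with the core, Ctsd and Ctsa (log2 1.02) rose, while Atp6v1a and Atp6v0d1 (log2 0.03) did not pass.

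Genes of lipid handling rose in part. Of 17 tested members of the list for uptake, storage and efflux, 10 rose (58.8% against 2.93% of all genes) and 0 fell, with a median log2 fold change of 0.99. Plin2, the coat protein of lipid droplets, was at 27.3 and 25.5 CPM in the PTS + RS libraries and at 5.08 and 5.87 CPM in the RS libraries, 4.83-fold higher (log2 2.27, SE 0.15, adjusted p = 0.00066, edgeR). Lpl, the lipase that frees fatty acids from lipoproteins, was at 86.4 and 87.0 against 39.0 and 36.0 CPM (log2 1.21, adjusted p = 0.00081). Msr1, a scavenger receptor for modified lipoprotein, was at 4.90 and 4.13 against 0.221 and 0.0631 CPM. Ch25h, which makes 25-hydroxycholesterol, rose by 3.11, the scavenger receptor Cd36 by 1.88 and the cholesterol exporter Abca1 by 1.44 on the log2 scale. Apoe, the main lipoprotein of the brain, was the most abundant gene that rose, at 3110 and 2370 CPM against 1220 and 1360 CPM (log2 1.08, SE 0.151, adjusted p = 0.012). Fabp3, a fatty acid carrier, was at 20.1 and 26.9 against 35.6 and 32.9 CPM and did not pass (log2 -0.55, adjusted p = 0.12). Fewer members of the list passed with either RS library left out, at medians of 1.01 without RS replicate 1 and 0.92 without RS replicate 2.

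Of 14 genes of iron and heme, 3 rose and 0 fell (21.4% against 2.93% of all genes). Hmox1, the oxygenase that breaks down heme, was at 12.8 and 18.5 CPM against 4.69 and 3.60 CPM (log2 1.91, adjusted p = 0.0084, edgeR). Ftl1, the light chain of the iron store ferritin, was at 175 and 149 against 83.2 and 88.0 CPM (log2 0.92, adjusted p = 0.0038). Slc11a1, which moves iron out of phagosomes, was at 14.8 and 10.3 against 3.09 and 2.21 CPM. Tfrc, the transferrin receptor, was at 88.9 and 81.9 against 114 and 98.3 CPM and did not pass (log2 -0.31, adjusted p = 0.15). Hemoglobin and other red cell genes did not pass in any of 5 tested members, with sums of 40.8 and 37.27 CPM in the PTS + RS libraries and 60.92 and 45.44 CPM in the RS libraries.

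Astrocytes showed rising reactive genes beside homeostatic genes that moved less. Of 22 reactive astrocyte genes 8 rose (36.4% against 2.93% of all genes), all by 2-fold or more, and 0 fell, with a median log2 fold change of 1.18. Gfap, the intermediate filament of astrocytes (ENSMUSG00000020932, chromosome 11 from 102887336 to 102900912), was at 2060 and 1450 CPM in the PTS + RS libraries and at 372 and 354 CPM in the RS libraries. That is 4.84-fold higher (log2 2.27, SE 0.171, adjusted p = 0.0011, edgeR). Serpina3n, a secreted protease inhibitor, was at 248 and 186 against 47.0 and 48.8 CPM (log2 2.18, adjusted p = 0.00063), and the filament protein Vim at 274 and 180 against 53.1 and 52.6 CPM. The receptors Osmr (log2 1.88), S1pr3 (1.6) and Cd44 (2.41) and the secreted Ptx3 (2.32) rose too, and Lcn2, given above, is the eighth member. Hspb1, a small heat shock protein, was at 9.86 and 6.28 against 8 and 10.5 CPM and did not pass (log2 -0.19, adjusted p = 0.76). Of 15 homeostatic astrocyte genes 4 rose (26.7% against 2.93% of all genes): the water channel Aqp4 (282 and 207 against 128 and 115 CPM), the glutamate transporter Slc1a3 (769 and 719 against 492 and 495 CPM), the gap junction protein Gja1 (log2 0.58) and the potassium channel Kcnj10 (log2 0.46). None of the homeostatic genes fell. The list median was 0.17. Replicate 1 was again the higher PTS + RS library for the reactive list (median 1.56 against 0.69). The reactive list's median in the test was 1.54 without PTS + RS replicate 2 and 0.66 without PTS + RS replicate 1. Without either RS library none of the homeostatic genes passed.

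Of 20 cell cycle genes, which were at low levels, 7 rose and 0 fell (35% against 2.93% of all genes). All 20 had a log2 fold change above 0, with a median of 1.11. Top2a, the topoisomerase of dividing cells, was at 7.53 and 6.46 CPM in the PTS + RS libraries and at 1.49 and 1.01 CPM in the RS libraries (log2 2.47, SE 0.283, adjusted p = 0.0052, edgeR). Mki67, the proliferation marker, was at 11.2 and 12.1 against 4.25 and 3.60 CPM (log2 1.56, adjusted p = 0.0067). Ube2c, which helps degrade cyclin B, had 34 and 36 counts against 3 and 1 and was at least 11.7-fold higher, and Cdk1, the kinase that drives mitosis, had 28 and 29 counts against 3 and 2 and was at least 9.49-fold higher. The lower end was Pcna (log2 0.02), the sliding clamp of DNA replication, and the replication helicase subunits Mcm4 (0.14) and Mcm5 (0.25) did not pass either. These levels rest on few counts, and fewer members passed with either RS library left out. The medians were then 1.02 without RS replicate 1 and 1.23 without RS replicate 2. PTS + RS libraries differed little from each other in this list, with medians of 1.08 and 0.98.

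Among markers of other immune cells, 3 of 10 border macrophage genes rose (30% against 2.93% of all genes). Siglec1, a sialic acid receptor of perivascular and meningeal macrophages, was at 11.1 and 9.15 CPM against 0.552 and 0.442 CPM, 20.0-fold higher (log2 4.32, SE 0.285, adjusted p = 0.00066, edgeR). Stab1 was at 132 and 104 against 27.1 and 25.2 CPM, and Ms4a7 at 5.49 and 2.63 against 0.11 and 0.442 CPM. All 10 members summed to 180.2 and 130.7 CPM against 40.5 and 36.79 CPM, and most of this was Stab1. All 10 had a log2 fold change above 0, with a median of 1.35. The groups did not overlap in 7 of them, against 25.6% of all genes on the high side. F13a1 (log2 1.48), Pf4 (1.79) and Folr2 (1.23) did not overlap but did not pass. Nor did Mrc1 (12.1 and 3.95 against 5.46 and 4.42 CPM), Lyve1 (log2 0.90), Cbr2 (0.65) and Cd163 (0.74) pass. In Mrc1, Lyve1 and Cbr2 the groups overlapped. The MHC class II list gave 1 rise of 8 (12.5% against 2.93% of all genes), the costimulator Cd86 (8.11 and 5.56 against 1.49 and 1.26 CPM, adjusted p = 0.0088). H2-Ab1, a class II chain, was at 5.72 and 2.87 against 1.10 and 1.39 CPM and did not pass (log2 1.79, adjusted p = 0.069). The class II transactivator Ciita was at 5.02 and 4.43 against 4.30 and 5.43 CPM. Only 3 of 15 T and B cell markers had enough counts to be tested, and none passed by edgeR. Cd3g and Ms4a1 were at 0 counts in all 4 libraries, and Cd3d and Cd3e had 0 to 5. None of the 10 neutrophil markers reached 10 counts in 2 libraries, and Ly6g, Elane and Retnlg were at 0 in all 4 libraries.

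**Figure D4:**
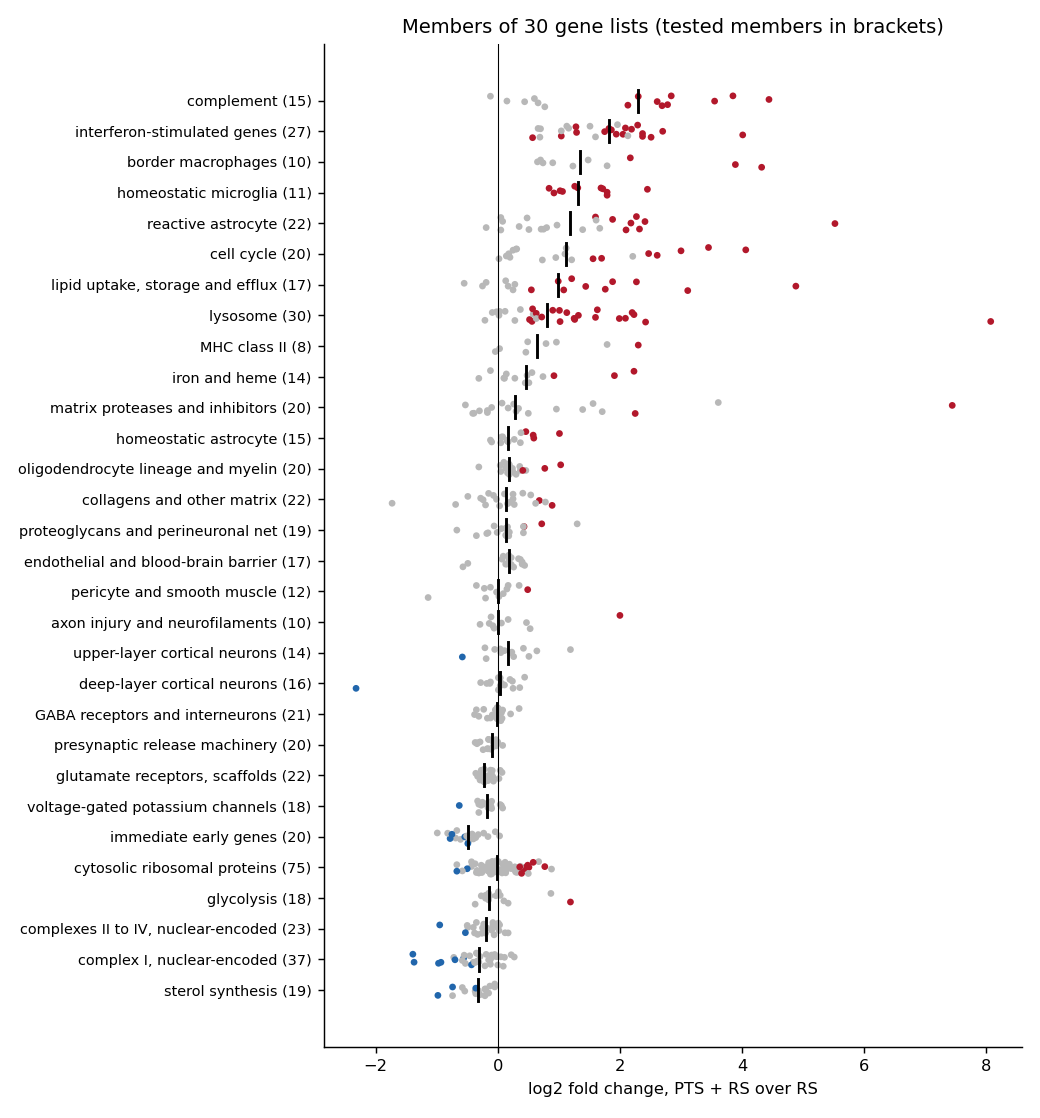
Log2 fold change, PTS + RS over RS, of each tested member of 30 gene lists, ordered from phagocyte and glial lists at the top to metabolic lists at the bottom. Red and blue points rose and fell, grey points did not pass, and the black bar is the list median, which goes from 2.30 for complement to -0.48 for immediate early genes. Points of genes with 3 counts or fewer in each RS library, such as Atp6v0d2 and Mmp12, are fitted values and no bounds.

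Cells of the myelin lineage and of the vessels moved less than phagocytes and astrocytes. Of 20 oligodendrocyte genes 3 rose (15% against 2.93% of all genes), and these sit at the step from precursor to myelin-forming cell or in myelin lipid synthesis: Gpr17 (83.5 and 96.9 against 50.8 and 55.3 CPM, log2 0.77, adjusted p = 0.0091, edgeR), Enpp6 (23.8 and 18.5 against 10 and 10.7 CPM) and Ugt8a (94.3 and 86.7 against 68.9 and 67.8 CPM). Mbp, the most familiar myelin protein, was at 2640 and 3190 against 2570 and 2360 CPM and did not pass (log2 0.24, adjusted p = 0.39). Olig2 was at 33.9 and 30.1 against 36.1 and 43.1 CPM. The rises did not hold without RS replicate 1. The list median was 0.28 without PTS + RS replicate 1 and 0.15 without PTS + RS replicate 2. None of 17 endothelial and blood-brain barrier genes passed by edgeR. The list median of 0.18 was 0.27 when PTS + RS replicate 2 was left out. Cldn5, the tight junction protein of brain endothelium, was at 48.0 and 39.0 against 43.4 and 39.6 CPM (log2 0.07, adjusted p = 0.83), and -0.09 without PTS + RS replicate 1. Ocln, another tight junction protein, was at 11.6 and 10.6 against 15.3 and 17.9 CPM (log2 -0.57, adjusted p = 0.10). The pericyte gene Rgs5 was the only riser of 12 vessel wall genes (129 and 116 against 89.8 and 84.5 CPM, adjusted p = 0.027), 8.33% against 2.93% of all genes.

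Matrix genes gave few rises. Of 22 collagens and other matrix genes, Sparc, a collagen-binding glycoprotein (488 and 424 against 255 and 235 CPM, log2 0.89, adjusted p = 0.0043, edgeR), and Col16a1 (31.4 and 26.7 against 17.7 and 18.6 CPM) rose, 9.09% against 2.93% of all genes. The PTS + RS libraries differed in direction in this list, with a median of 0.48 in replicate 1 and -0.26 in replicate 2, the library in which meningeal fibroblast and choroid plexus markers were lowest. Col8a1 shows this most plainly, at 12.1 and 0.718 against 15.9 and 26.9 CPM, a difference that did not pass (adjusted p = 0.34). The part of those tissues in the matrix values was not tested. Leaving out PTS + RS replicate 2 gave this list a median of 0.47, and leaving out PTS + RS replicate 1 gave a median of -0.32. Of 19 proteoglycans and perineuronal net genes, Vcan (versican, log2 0.72) and Ptprz1 (log2 0.43) rose, 10.5% against 2.93% of all genes. Of 20 matrix proteases and inhibitors, Mmp12 and the plasminogen activator Plau (14.9 and 8.26 against 2.81 and 2.02 CPM, log2 2.25, adjusted p = 0.016) rose, 10% against 2.93% of all genes.

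Falls were fewer and mostly small, and they differed from other genes in more than function. Genes that fell had a median GC content of 55.4% against 49.5% for all tested genes and a median length of 2325 bases against 3909, and 51 of the 103 lay in the shortest quartile of genes. Genes that rose had a GC content of 50.1% and a length of 3800 bases. In the quartile of genes richest in GC, the median log2 fold change was -0.103 in PTS + RS replicate 1 and -0.041 in replicate 2. With an offset for GC fitted in each library, 81 genes fell, and 69 of the 103 remained among them (67%), while 487 of the 519 rises remained (93.8%). With an offset for gene length, 93 of the 103 falls remained. Whether GC or length had a part in the falls beyond these fits was not tested.

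The largest fall among protein-coding genes at 1 CPM or more was that of Pcp4, a small calmodulin-binding protein of deep-layer cortical neurons. It was at 2.04 and 2.45 CPM in the PTS + RS libraries and at 10.9 and 11.5 CPM in the RS libraries. Both groups were tight and lay far apart, 4.99-fold lower in the PTS + RS group (log2 -2.32, SE 0.207, adjusted p = 0.0021, edgeR). Rpl22l1, a paralog of a ribosomal protein, was at 7.53 and 9.03 against 27.5 and 23.5 CPM (log2 -1.62, adjusted p = 0.0031). Gnas, which encodes the stimulatory G protein subunit and several imprinted transcripts, was at 72.3 and 86.9 against 156 and 178 CPM (log2 -1.07, adjusted p = 0.0036). Tmsb10, which binds actin monomers, was at 25.8 and 34.2 against 64.9 and 60.3 CPM (log2 -1.06, adjusted p = 0.0091). Krt8, a keratin of simple epithelia, was at 1.23 and 0.538 against 3.42 and 5.30 CPM (log2 -2.29, adjusted p = 0.041). Its order over the libraries, lowest in PTS + RS replicate 2 and highest in RS replicate 2, is that of the summed choroid plexus markers, whose part in it was not tested. Gm11273 (log2 -1.21) and Gm6793 (log2 -1.08) are predicted genes. The adjusted p of Krt8 and Gm11273 missed the threshold with a GC offset (0.051 and 0.054). The most abundant gene that fell was Pcsk1n, an inhibitor of a prohormone protease in neurons, at 384 and 397 against 524 and 566 CPM (log2 -0.48, adjusted p = 0.03).

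Several other low values are uncertain. Sult1c2, a sulfotransferase, had 1 and 0 counts in the PTS + RS libraries and 16 and 24 in the RS libraries, at least 6.76-fold lower. The processed pseudogenes Gm12411, Gm17828, Gm3788, Gm16418 and Gm10705 fell by 1.47 to 2.42 on the log2 scale, and reads of such copies can be shared with their parent genes. Gm23935, annotated as a miRNA, and the mitochondrial tRNA gene mt-Te also fell.

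Respiratory chain genes of the nucleus tended to lower values. Complex I, which passes electrons from NADH to ubiquinone, is built of many subunits, and of 37 nuclear-encoded ones 7 fell and 0 rose (18.9% against 0.581% of all genes), with a median log2 fold change of -0.31. Ndufa2 was at 14.4 and 15.7 CPM in the PTS + RS libraries and at 36.3 and 42.9 CPM in the RS libraries, 2.62-fold lower (log2 -1.39, SE 0.128, adjusted p = 0.0025, edgeR). Ndufa12, at 10.9 and 14.2 against 24.6 and 40.5 CPM, was less even among the RS libraries (log2 -1.37, adjusted p = 0.033). Ndufb6 (13.7 and 15.7 against 28.6 and 28.9 CPM) and Ndufa1 (13.2 and 14.8 against 27.9 and 25.4 CPM) fell by 0.97 and 0.93 on the log2 scale. Ndufs6 (-0.70), Ndufa3 (-0.56) and the core subunit Ndufs3 (-0.43) fell by less, and Ndufb9 stood at 38.7 and 44.8 against 35.4 and 34 CPM without passing. Of 23 subunits of complexes II to IV, Uqcr11 (20.6 and 27.5 against 43.5 and 49.5 CPM) and Uqcrq (50 and 59.8 against 79.2 and 79.6 CPM) fell, 8.7% against 0.581% of all genes. Outside the lists, and named after their values were seen, the ATP synthase subunits Atp5e (log2 -0.94) and Atp5g3 (-0.75), the import proteins Timm13 (-0.93) and Chchd4 (-0.59) and the assembly factor Cox14 (-0.66) fell.

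Most complex I members did not pass. These transcripts are short, with a median length of 1569 bases for the complex I list. With a GC offset 8 members fell and with a length offset 7. The list median of -0.31 became -0.28 and -0.27 in these fits. That of complexes II to IV went from -0.2 to -0.14 in each. The part of GC and length in these values was not tested beyond these fits. Fewer complex I members passed with either RS library left out, and the list median ranged from -0.33 to -0.24 with any library left out. Cytosolic ribosomal protein genes, whose transcripts are also short (median 1781 bases), went both ways, with a median of -0.01. Of 75, 9 rose (12% against 2.93% of all genes) and 2 fell (2.67% against 0.581%). Rpl29 was at 109 and 110 against 65.2 and 63.2 CPM (log2 0.77, adjusted p = 0.0028, edgeR), whereas Rps16 was at 54.5 and 53.2 against 84.2 and 86.5 CPM (log2 -0.67, adjusted p = 0.0053). Their many pseudogenes can share reads with them. Among 18 glycolysis genes Hk2, a hexokinase, rose (14.5 and 15.8 against 6.51 and 6.82 CPM, log2 1.19, adjusted p = 0.0097), 5.56% against 2.93% of all genes, and the list median was -0.15.

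Immediate early genes stood lower in 19 of 20 members, with a median log2 fold change of -0.48, and 4 fell (20% against 0.581%). Egr1, a zinc finger factor induced by firing, was at 72.3 and 87.5 CPM in the PTS + RS libraries and at 135 and 140 CPM in the RS libraries, 1.72-fold lower (log2 -0.78, SE 0.103, adjusted p = 0.0093, edgeR). Egr3 was at 71.1 and 80.7 against 111 and 110 CPM (log2 -0.54, adjusted p = 0.021) and the nuclear receptor Nr4a1 at 40.7 and 56.1 against 82.4 and 80.6 CPM (log2 -0.75, adjusted p = 0.04). Jund, a subunit of AP-1 that is also expressed at rest, was at 40.1 and 40.3 against 56.7 and 56.2 CPM (log2 -0.49, adjusted p = 0.027), but -0.23 with an adjusted p of 0.26 under the GC offset. Arc, which acts at synapses, was at 66.6 and 107 against 131 and 148 CPM (log2 -0.69, adjusted p = 0.13), and Fos at 9.86 and 11.1 against 11.6 and 11.7 CPM (adjusted p = 0.66). Jun stood level at 117 and 120 against 113 and 119 CPM. The list's median GC content was 55.6%, and its median log2 fold change was -0.47 with the GC offset. The calls did not hold with either RS library left out. The median was -0.39 without PTS + RS replicate 1 and -0.6 without PTS + RS replicate 2.

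Genes of sterol synthesis and uptake had log2 fold changes under 0 in all 19 members, with a median of -0.32. Of these, 3 fell (15.8% against 0.581% of all genes). Insig1, which holds the sterol sensor in the endoplasmic reticulum, was at 41.4 and 40.9 CPM in the PTS + RS libraries and at 72.7 and 64.4 CPM in the RS libraries (log2 -0.74, SE 0.094, adjusted p = 0.0084, edgeR). Srebf2, the master factor of the pathway, was at 190 and 197 against 249 and 249 CPM (log2 -0.36, adjusted p = 0.044). Fewer members passed with either RS library left out, and the median ranged from -0.37 to -0.21 with any library left out. Srebf2 missed the threshold with a GC offset (adjusted p = 0.067). The sterol element TCACNCCAC was found in the promoter of 1 of the 12 members with an entry (8.33%, against 388 of 27025 genes or 1.44%), that of Hmgcs1 (log2 -0.32, adjusted p = 0.20).

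Neuronal lists had few calls. Rbfox3, which encodes the neuronal marker NeuN, was at 206 and 261 CPM against 266 and 291 CPM and did not pass (log2 -0.25, SE 0.12, adjusted p = 0.33, edgeR). None of the 12 neuron markers passed, and Stmn2 and Tubb3 differed by 0.06 and -0.20 on the log2 scale. No member passed among 22 glutamate receptors and scaffolds (median -0.22), 20 genes of transmitter release (median -0.09) and 21 GABA receptor and interneuron genes (median -0.01). Values under 0 were found in 19 of the 22 glutamate genes, 18 of the 20 release genes and 15 of 18 potassium channel genes. The groups did not overlap on the low side in 14, 9 and 11 of them, against 24.5% of all genes. How many members passed turned on which library was left out. Without PTS + RS replicate 2 the medians were -0.38 for the glutamate list, -0.13 for the release list and -0.18 for potassium channels. Without PTS + RS replicate 1 they were -0.08, -0.07 and -0.16. The smallest p in each list belonged to Homer1 (108 and 110 against 127 and 136 CPM, adjusted p = 0.12), Vamp1 (99.5 and 108 against 133 and 130 CPM, adjusted p = 0.067) and Slc32a1, the vesicular GABA transporter (53.8 and 51.1 against 65.8 and 70.4 CPM, adjusted p = 0.065). Of 18 potassium channel genes Kcna4 fell (28.6 and 24.6 against 43.0 and 39.7 CPM, log2 -0.63, adjusted p = 0.033), 5.56% against 0.581% of all genes. The layer lists were split. Pcp4 was the only fall among 16 deep-layer genes and Wfs1 the only fall among 14 upper-layer genes (131 and 102 against 176 and 173 CPM, log2 -0.58, adjusted p = 0.047), while the list medians were 0.04 and 0.16. These falls make 6.25% and 7.14% of the lists, against 0.581% of all genes. Leaving out PTS + RS replicate 1 turned the deep-layer median to -0.13, and leaving out PTS + RS replicate 2 moved the upper-layer median to 0.4. Of 16 striatal genes Ppp1r1b, a dopamine-regulated phosphatase inhibitor, fell (33.2 and 33.0 against 47.4 and 66.3 CPM, adjusted p = 0.047), 6.25% against 0.581% of all genes, and the list median was -0.11. Wfs1 and Ppp1r1b missed the threshold with a GC offset (adjusted p of 0.10 and 0.068) and with limma-voom (0.050 and 0.064).

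Lists tied to stress, injury and time of day gave few calls. Mt1, a metallothionein induced by zinc, injury and glucocorticoids, was the only riser of 17 glucocorticoid-responsive genes (5.88% against 2.93% of all genes). It was at 381 and 395 CPM in the PTS + RS libraries and at 158 and 140 CPM in the RS libraries (log2 1.38, SE 0.086, adjusted p = 0.00058, edgeR). Sgk1, another target of the receptor, was at 80.4 and 81.6 against 63.3 and 69.6 CPM and did not pass (adjusted p = 0.13). Atf3, a factor of injured neurons, rose among 10 axon injury and neurofilament genes (4.49 and 3.41 against 0.662 and 1.33 CPM, log2 2.00, adjusted p = 0.044), 10% against 2.93% of all genes. The neurofilament gene Nefm was at 150 and 175 against 200 and 196 CPM without passing. No member passed among 16 heat shock and unfolded protein genes (median 0.04), 16 clock genes (median -0.02), 9 thalamic genes (median 0.18), 11 ependymal genes (median -0.22), 12 meningeal genes (median -0.16) and 7 olfactory bulb genes (median 0.21). The meningeal median turned with 1 library, at -1.32 when PTS + RS replicate 1 was left out, 0.28 when PTS + RS replicate 2 was and 0.21 when RS replicate 1 was. The ependymal median was 0.19 when RS replicate 2 was left out.

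The 2 PTS + RS libraries showed these changes to unequal degrees. Each library was set against the mean of the RS libraries, and the median of each list was taken. In all 9 lists with a median of 0.5 or more, the rise was larger in replicate 1. In all 8 lists with a median of -0.1 or less, markers of other tissues left out, the fall was larger in replicate 1 too. Of the rising lists the gap was widest for interferon-stimulated genes (2.17 against 1.28), reactive astrocytes (1.56 against 0.69), border macrophages (1.58 against 0.86) and MHC class II (0.97 against 0.22). Homeostatic microglia (1.47 against 1.39) and cell cycle genes (1.08 against 0.98) were close in both. Choroid plexus markers had the same order between these libraries, at 2612 and 228.9 CPM. They were at 2870 and 5764 CPM in the RS libraries, where the rising lists were lower. Their part in these differences was not tested.

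**Figure D5:**
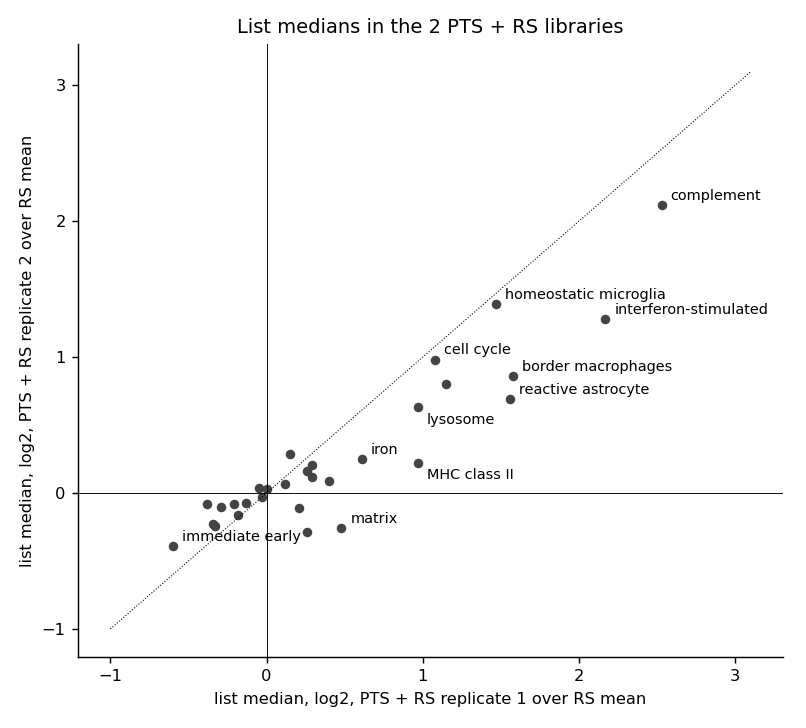
Median log2 ratio of 30 gene lists in PTS + RS replicate 1 (horizontal) and replicate 2 (vertical), each over the mean of the RS libraries, with a dotted line of equality. Lists with a median of 0.5 or more lie to the right and below the line, among them interferon-stimulated genes (2.17 and 1.28) and reactive astrocyte genes (1.56 and 0.69).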

How the data were processed

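Cortex RNA of 2 PTS + RS and 2 RS libraries was sequenced. Per the labels and the study's methods, the authors aligned reads to the mouse genome (GRCm38, mm10) with STAR 2.4.0 and counted them per gene with HTSeq 0.6.1. The deposited table gives raw counts per gene, used here, and FPKM (counts scaled by gene length and depth), which served only as the authors' values and in no test. Its fold changes and p-values were not used. The labels and the methods name different library kits, and the strand setting of the counting is not given in the sources used here, so overlapping antisense genes cannot be told apart. Genes with 10 or more counts in 2 libraries were kept. Counts were scaled by TMM and tested with edgeR 4.0.16 (quasi-likelihood, R 4.3.3), with Benjamini-Hochberg adjustment over all tested genes and a threshold of 0.05. The SE is the log2 fold change over the square root of F. The common biological coefficient of variation was 11.5%. Alternatives were DESeq2 1.42.0, limma-voom 3.58.1, other scalings and filters, a replicate block, each library left out, and offsets for GC and gene length, the last chosen after seeing the data. The fits were tested on simulated data.

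The members and the 43 gene lists were chosen with earlier results of these data known. Genes are named by rule: the 10 largest changes in each direction among protein-coding genes past the threshold, with groups that do not overlap and a mean of 1 CPM or more, the 3 members of each list with the smallest p and the largest change in the other direction, a few identity genes and the most abundant gene in each direction. Other members are given as examples of their list, and some genes that the rule names are not reported here. Genes with 3 counts or fewer in each library of a group get a bound against 3 counts per library. Intervals of counting error were not used, since the spread between libraries exceeded it. Promoter sequences are RefSeq's (GRCm38.p6).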

Additional observations from a re-analysis of the deposited data

How the results depend on the processing

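All 622 genes that rose or fell kept their sign in each alternative, which their choice by the test on the same libraries made likely. DESeq2 gave 602 rises and 188 falls, and at 2-fold or more 408 and 35. Without a filter on low counts 1119 rose and 716 fell, and at 2-fold or more 604 and 155. Rises made up 61% of the calls without the filter and 76.2% with DESeq2. Leaving out a PTS + RS library gave 56.5% (replicate 1) and 51.9% (replicate 2), and leaving out an RS library gave 93.5% (replicate 1) and 94.8% (replicate 2). limma-voom gave 434 rises and 86 falls. With 1 library left out, rises ranged from 216 to 1578, falls from 13 to 1465, rises of 2-fold or more from 210 to 654 and falls of 2-fold or more from 7 to 225. Such a fit has 1 residual degree of freedom, and the lone library is assumed to vary like the other group. The cause of these shifts was not tested. Replicate numbers did not pair the libraries (the deviations of same-numbered libraries correlated at 0.0388), and with the replicate number as a block 665 rose and 215 fell, with 432 and 30 at 2-fold or more.

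Among the named genes, 12 had a direction that turned when a library was left out, and none of these had passed. The lowest values of Jun and Stmn2 were just under 0 and print as 0.00. Over the 4 such fits the log2 fold change ranged from -0.28 to 0.02 for C2, -0.20 to 0.13 for Ciita, -0.55 to 0.10 for Hspb1, 0.00 to 0.06 for Jun, -0.02 to 0.16 for Grm3, -0.11 to 0.80 for Drd2, -0.06 to 0.60 for Dcn, -0.24 to 1.10 for Lck, 0.00 to 0.13 for Stmn2, -0.01 to 0.44 for Cdhr1, -0.54 to 0.48 for Sp8 and -0.09 to 0.21 for Cldn5. Of the named genes that passed, 35 lost the call without RS replicate 1, 35 without RS replicate 2, 6 with the GC offset, 1 with the length offset and 8 with limma-voom. The adjusted p of limma-voom was 0.057 for Ndufa12, 0.055 for Ugt8a, 0.053 for Atf3 and 0.060 for Ms4a7. Depth limits the genes at a few CPM, such as those of the cell cycle.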

Other observations

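Some genes outside the lists are given here as single genes, chosen after their values were seen. Cxcl10, a chemokine for T cells, was at 13.9 and 4.31 CPM in the PTS + RS libraries and at 0.497 and 0.568 CPM in the RS libraries (log2 4.08, adjusted p = 0.02, edgeR). Tlr2, a receptor for microbial and damage signals, was at 17.5 and 13.5 against 1.49 and 1.26 CPM (log2 3.48, adjusted p = 0.00075). Taking 3 counts per library as the floor, the B cell and microglia receptor Cd22 was at least 23.9-fold higher, Ccl4 at least 9.14-fold, the checkpoint receptor Pdcd1 at least 8.68-fold and Il1rn, the interleukin-1 receptor antagonist, at least 5.81-fold. Klk6, a protease of oligodendrocytes, was at 8.41 and 6.34 against 0.607 and 0.631 CPM (log2 3.56, adjusted p = 0.0017).

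Genes that fell outside the lists included Vegfa, the vessel growth factor, at 67.5 and 73.0 CPM in the PTS + RS libraries and at 90.8 and 95.9 CPM in the RS libraries (log2 -0.41, adjusted p = 0.046, edgeR), and Esrra, a nuclear receptor that drives respiratory genes, at 33.0 and 36.1 against 54.5 and 56.9 CPM (log2 -0.69, adjusted p = 0.011). Pou3f1, a factor of cortical neurons, fell by 0.84 and the calcium exchanger Slc8a1 by 0.60 on the log2 scale.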
